A study of Mus musculus with 18 samples.

Results

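Sost and 7 other secreted inhibitors of Wnt signalling were followed in mouse carotid tissue that was labelled pre-injury or taken after wire injury. The set was defined by gene symbol as Sost, Frzb, Sfrp1, Sfrp2, Sfrp4, Dkk2, Dkk3 and Wif1, which are 8 of the 35655 genes in the count table, and all 8 were among the 10312 genes that had enough counts to be tested. Sost was chosen on its measured levels, because it was almost lost on day 7 and came back later, so its time course is given as a description and with no test. The choice of the other 7 names no measured value of theirs, and they were tested together with all other genes. Earlier results of these data were known when the set was chosen, so the choice may not be independent of the values tested.

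RNA came from WT C57/BL6 male mice that were operated at 11 weeks of age, with injury to the left carotid artery. Libraries were made from laser-dissected carotid sections, described by the study as holding the neointima and the outer elastic lamina. There were 4 libraries labelled day 0 or pre-injury and 4, 3, 4 and 3 libraries from days 7, 14, 21 and 28 after injury. The study attributes the neointima to wire injury and does not say separately what the day 0 sections held. The study describes its neointima samples as pooled. It also used the right, uninjured artery as control, and 3 mouse numbers stand both on a day 0 and on a day 21 library, so it cannot be told whether these day 0 vessels came from mice before surgery. MACE, the assay used, reads the 3′ ends of transcripts, and levels are given as CPM, read counts set against the library total and corrected by TMM factors, which can be compared between libraries for a gene but not between genes of different capture.

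Wnt ligands are secreted proteins that bind Frizzled receptors together with the co-receptors Lrp5 and Lrp6 and, in the canonical branch, stabilise β-catenin. Secreted antagonists act outside the cell: Frzb, the Sfrp proteins and Wif1 bind the ligands themselves, whereas sclerostin, the product of Sost, and Dkk2 bind the Lrp co-receptors. Sclerostin is best known as the osteocyte protein that restrains bone formation, and Sost is also expressed by smooth muscle cells of the arterial wall.

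The genes lie on different chromosomes, apart from Sfrp2 and Dkk2 on chromosome 3. On GRCm39, the build of the authors' counts, with GENCODE annotation, Sost spans chr11:101853284-101857847 on the minus strand in 2 exons. Frzb spans chr2:80242313-80278304 (minus), Sfrp1 chr8:23901263-23939648 (plus), Sfrp2 chr3:83673481-83681623 (plus) and Sfrp4 chr13:19807274-19817164 (plus). Dkk2 spans chr3:131790336-131886065 (plus), Dkk3 chr7:111712904-111758760 (minus) and Wif1 chr10:120869865-120936555 (plus). Exons of Frzb overlap those of the antisense gene Gm74782 over 136 bases, and exons of Sfrp2 overlap those of the antisense gene Gm26771 over 484 bases. Whether strand was used when reads were assigned to genes is not given in the sources used here, so reads from these stretches cannot be assigned with certainty. The other 6 genes share no exon bases with another gene.

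The 250 bases before the canonical start are shown for Sost, which was lost and returned, and for Wif1, which was lowest on day 21. They were read from GRCm39 at chr11:101857848-101858097 (minus strand) and chr10:120869615-120869864 (plus). Capitals mark the motifs found among 4 that were searched on both strands: the CArG box that serum response factor binds in smooth muscle genes, the TCF/LEF motif CTTTGAT, the E-box CANNTG and the TATA box TATAAA.
Sost: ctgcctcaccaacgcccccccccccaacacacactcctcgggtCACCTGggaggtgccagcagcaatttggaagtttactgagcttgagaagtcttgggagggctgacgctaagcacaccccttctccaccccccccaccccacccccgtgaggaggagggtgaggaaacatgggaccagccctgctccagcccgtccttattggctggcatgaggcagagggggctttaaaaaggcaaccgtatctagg
Wif1: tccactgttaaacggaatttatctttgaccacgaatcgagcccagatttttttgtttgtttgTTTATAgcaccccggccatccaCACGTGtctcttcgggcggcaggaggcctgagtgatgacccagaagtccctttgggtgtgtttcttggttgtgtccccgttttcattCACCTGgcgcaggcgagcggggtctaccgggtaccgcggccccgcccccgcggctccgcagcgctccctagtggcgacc
The capitals in Sost are an E-box at -207 to -202 from the start. In Wif1 they are a TATA box read on the opposite strand, at -188 to -183, and an E-box at each of 2 positions, -166 to -161 and -79 to -74. Of 21770 promoters of the same length, 64.8% held an E-box and 11.9% a TATA box. Neither of the windows shown held the CArG box or the TCF/LEF motif, which stood in 1.4% and 2.86% of all promoters.

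Sost was high in uninjured tissue, close to absent on day 7, and rose towards its starting level by day 28. On day 0 the libraries held 2262, 1192, 1341 and 1538 CPM. On day 7 they held 7.12, 1.80, 7.97 and 51.7 CPM. Every day 7 library was thus far below every day 0 library, the lowest of day 0 standing 23.1-fold above the highest of day 7. These levels rest on 41 Sost counts in all 4 day 7 libraries together (95% exact Poisson interval 29.4 to 55.6, counting error only), against 4588 on day 0. The mean fell from 1583 ± 474 (SD, n = 4) to 17.1 ± 23.2 CPM (n = 4), which is 1.08% of day 0 or 92.4-fold lower, and 281-fold lower without the day 7 library that held 32 of the 41 counts.

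On day 14 Sost stood at 397, 65.3 and 219 CPM, with a mean of 227 ± 166 (SD, n = 3) or 14.3% of day 0. The day 21 libraries held 687, 68.6, 819 and 1031 CPM. Here 3 libraries were close to each other and replicate 2 stood at the level of the lowest day 14 library. The day 21 mean was 651 ± 413 CPM (n = 4), 41.1% of day 0, and 846 ± 173 CPM, 53.4%, without replicate 2. By day 28 Sost had reached 1212, 792 and 716 CPM, a mean of 907 ± 267 (n = 3) or 57.3% of day 0. The days ordered as 0, 28, 21, 14 and 7 from the highest mean to the lowest. Among neighbours in this order, only the ranges of days 14 and 7 did not overlap. Against day 0, the ranges of days 7, 14 and 21 did not overlap and that of day 28 did.

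**Figure D1:**
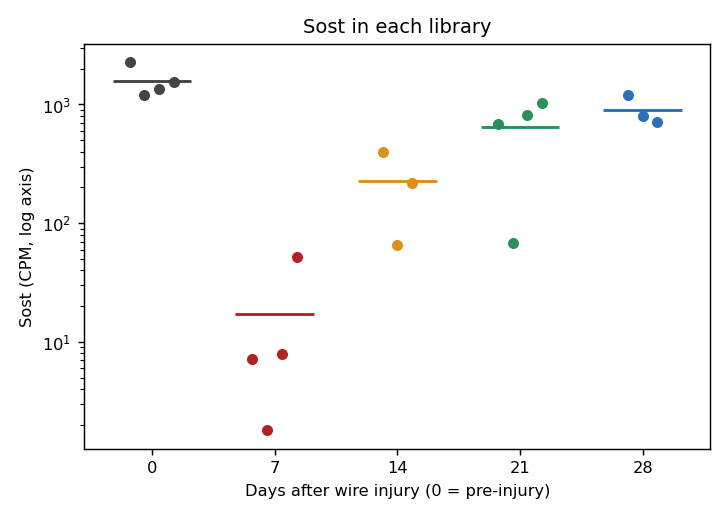
Sost in CPM (log axis) against days after wire injury, with 1 point per library and a line at the mean of each day. The 4 day 7 libraries lie between 1.80 and 51.7 CPM, below all others, and the libraries of day 28 reach 716 to 1212 CPM.

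The contractile markers of smooth muscle moved with Sost. The summed level of 10 such markers, among them Acta2, Myh11 and Cnn1, which encode smooth muscle actin, myosin and calponin, was 37570 ± 2357 CPM on day 0 (SD, n = 4) and 3692 ± 2615 on day 7 (n = 4), or 9.83% of day 0. It then stood at 36.6%, 39.7% and 66.1% of day 0 on days 14, 21 and 28. In these bulk samples, fewer smooth muscle cells and less RNA per cell cannot be told apart. All 9 of the 10 contractile markers that could be tested were called lower on day 7 than on day 0, beside 8.53% of all genes tested.

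Sost was also set against these markers within each library, a ratio added after the levels had been seen. On day 0 there were 57.1, 34.9, 35.0 and 40.3 Sost counts per 1000 contractile marker counts, and on day 7 there were 1.92, 1.06, 4.01 and 7.00. The ranges did not overlap, and the mean ratio on day 7 was 8.37% of that on day 0 or 12.0-fold lower. This ratio rests on the same day 7 counts that chose Sost and is a description. On day 14 the ratio was 16.1, 8.45 and 24.6, still below every day 0 library. The day 21 ratios of 53.8, 7.79, 36.2 and 66.6 spanned the day 0 range, and their mean was 98.3% of that of day 0. The day 28 ratios were 40.6, 34.0 and 33.6, with a mean 86.2% of that of day 0. The part that the share of smooth muscle in each library had in the level of Sost was not tested further.

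**Figure D2:**
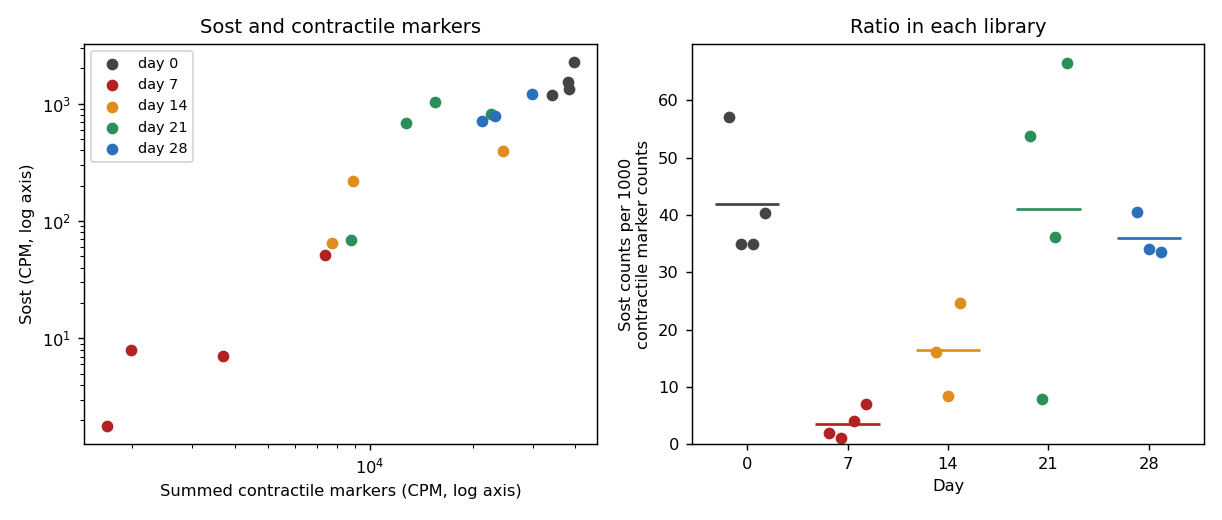
Left, Sost against the summed contractile markers, both in CPM on log axes, with 1 point per library coloured by day. Right, Sost counts per 1000 contractile marker counts by day, with a line at the mean, where days 7 and 14 lie below every day 0 library and day 21 spans 7.79 to 66.6.

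The genes whose levels were most like that of Sost over the 18 libraries were Acta2, with a Pearson r of 0.97 on log2 CPM, the adenylate cyclase gene Adcy5 (0.97), the laminin gene Lamb2 (0.96), Lims2 (0.96), a focal adhesion gene, and Hcfc1r1 (0.96). These correlations are given as a description, since the libraries share their days and their content of smooth muscle. Lamb2 and Acta2 were also among the first 5 by Spearman's rho, and Lamb2 alone when only day means or the 14 libraries without day 7 were used. Of the antagonists, Dkk3 had the highest r with Sost, 0.77 over the 18 libraries, followed by Wif1 with 0.57. Sfrp4 had 0.30 and Sfrp1 0.11, while Frzb, Sfrp2 and Dkk2 had -0.16, -0.24 and -0.49. Without the day 7 libraries, r over the other 14 was 0.70 for Wif1, 0.47 for Dkk3, 0.27 for Sfrp1, -0.67 for Sfrp4, -0.58 for Frzb, -0.68 for Sfrp2 and -0.49 for Dkk2. The sign of Sfrp4 thus turned and Wif1 came before Dkk3. Sost was also chosen for its return on the later days, so these values are a description too.

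Of 8 osteocyte and osteoblast markers, 5 had no count in any day 0 library, and the summed level of the 8 was 31.4 ± 16.5, 2.11 ± 2.01, 82.6 ± 79.8, 231 ± 234 and 127 ± 56.3 CPM over days 0, 7, 14, 21 and 28 (SD, n = 4, 4, 3, 4 and 3). The sum was lowest on day 7, where its mean was below the 5.39 CPM to which 3 counts correspond on average. Of the 3 markers that could be tested, Alpl was lower on day 7 than on day 0, with at most 1 count in a day 7 library. Ibsp and Phex were higher on day 21 than on day 0 (edgeR adjusted p = 0.0170 and 0.0310), beside 5.92% of all genes. Against day 7 all 3 were higher on day 21 and 2, Phex and Alpl, were higher on day 28, beside 4.03% and 6.4% of all genes. No day 7 library held over 3 counts of Phex or over 1 count of Ibsp, so the size of these changes is uncertain. The part of bone cells in the level of Sost was not tested. Dmp1, Mepe, Bglap and Sp7 had no count on day 0 or on day 7, and Fgf23 had none in any library.

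Of the 7 other antagonists, 3 were called higher and 1 lower on day 7 than on day 0 by the quasi-likelihood test of edgeR at an adjusted p under 0.05. Over all genes tested, 11.3% were called higher and 8.53% lower in that comparison. On day 14, 4 of the 7 were higher and 0 lower by edgeR (0 at an unadjusted p under 0.05 and 0 by DESeq2), beside 4.8% and 1.42% of all genes. On day 21, 4 were higher and 1 lower, beside 5.92% and 2.93%. For day 28 the edgeR counts were 1 higher and 0 lower (2 lower at an unadjusted p under 0.05 and 0 by DESeq2), beside 0.97% and 0.369%. The median log2 fold change of the 7 was -0.27, 1.79, 1.81 and 0.47 on days 7, 14, 21 and 28, where that of all genes was 0.07, 0.05, 0.07 and -0.01. All 4 comparisons share the day 0 libraries, and the set of 7 was chosen with earlier results of these data known. Each call was repeated under up to 24 alternatives, which were other software, scaling or filters, a fit of only the days compared, fits with a block for the replicate number or the mouse number, and the omission of each library in turn.

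Frzb, which encodes a soluble protein with the Frizzled type of Wnt-binding domain, was the only one of the 7 that was called on all 4 days. Its day 0 libraries held 73.0, 122, 55.1 and 53.8 CPM. Those of day 7 held 381, 179.7, 53.8 and 438 CPM, of which replicate 3 remained at the day 0 level and the others were above it. The rise on day 7 was 1.79 on the log2 scale (SE 0.42, edgeR adjusted p = 0.00300). On day 14 Frzb stood at 438, 296 and 344 CPM and on day 21 at 264, 412, 571 and 296 CPM, all above every day 0 library. The log2 fold changes were 2.24 (SE 0.44, edgeR adjusted p = 0.00236) and 2.33 (SE 0.42, edgeR adjusted p = 0.000937). The day 28 libraries, at 224, 329 and 296 CPM, also did not overlap day 0. The call on day 28, 1.89 (SE 0.44, edgeR adjusted p = 0.0345), was lost in 8 of 24 alternatives, among them both fits with a block, and the adjusted p reached 0.103 without day 28 replicate 2.

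Sfrp2, another soluble protein with a Frizzled type domain, was measured at 368, 339.5, 288 and 415 CPM on day 0. On day 7 it stood at 828, 1094, 245 and 589 CPM, where replicate 3 was below every day 0 library and the other 3 were above. This rise of 0.97 on the log2 scale (SE 0.31, edgeR adjusted p = 0.0288) was lost in 8 of 24 alternatives, with the fits that held a block among them, and the adjusted p was 0.213 without day 7 replicate 2. On day 14 the libraries held 1491, 851 and 1306 CPM and on day 21 they held 1096, 1669, 1321 and 861 CPM. Both days lay wholly above day 0, with log2 fold changes of 1.79 (SE 0.33, edgeR adjusted p = 0.00142) and 1.81 (SE 0.32, edgeR adjusted p = 0.000634). On day 28 Sfrp2 was back at 489.8, 392 and 583 CPM, which overlapped day 0 (0.47, edgeR adjusted p = 0.538).

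Sfrp4, of the same family, was 47.6, 37.1, 53.7 and 66.9 CPM on day 0 and 30.3, 28.8, 9.97 and 98.5 CPM on day 7. The ranges overlapped and no change was called (-0.27, edgeR adjusted p = 0.767). The rise of Sfrp4 came on day 14, with 222, 157 and 288 CPM, and day 21, with 99.4, 434, 279.6 and 272 CPM, and on both days every library was above day 0. The log2 fold changes were 2.12 (SE 0.47, edgeR adjusted p = 0.00563) and 2.39 (SE 0.45, edgeR adjusted p = 0.00125). By day 28 Sfrp4 had come down to 80.4, 84.3 and 55.9 CPM, below all libraries of days 14 and 21, and was not called against day 0 (0.52, edgeR adjusted p = 0.661).

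Sfrp1, the remaining member of the family, was low and variable. It held 5.96, 52.6, 38.8 and 72.2 CPM on day 0, 26.7, 28.8, 27.9 and 4.84 CPM on day 7, and 27.2, 28.2 and 11.7 CPM on day 14. The day 21 libraries held 123, 2.02, 55.9 and 41.9 CPM and those of day 28 held 27.3, 0 and 4.79 CPM. Several of these values are at or below 3 counts, which correspond to 3.55 to 6.98 CPM depending on the library. No change was called on any day (edgeR adjusted p = 0.477, 0.703, 0.824 and 0.333 on days 7, 14, 21 and 28). The 95% interval of the day 7 log2 fold change, -2.61 to 0.70, still holds changes of the size seen for Dkk3.

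Dkk2 encodes a Dickkopf protein that binds Lrp5 and Lrp6, and had the largest called rise of the 7, on day 21. Its day 0 level was close to the limit of counting, with 11.9, 7.17, 4.47 and 3.94 CPM from 8, 6, 3 and 3 counts. On day 7 the level was 26.7, 37.7, 73.8 and 43.6 CPM, above every day 0 library (2.69 on the log2 scale, SE 0.61, edgeR adjusted p = 0.00228). Day 14 was spread from 8.82 CPM in replicate 2 to 31.3 in replicate 3 and 59.2 in replicate 1. Its call against day 0 (2.25, SE 0.64, edgeR adjusted p = 0.0343) was lost in 7 of 23 alternatives, among them both fits with a block, and the adjusted p rose to 0.239 when day 14 replicate 1 was left out. The day 21 libraries held 54.4, 145, 32.9 and 51.2 CPM and did not overlap day 0 (3.33, SE 0.61, edgeR adjusted p = 0.00104). On day 28 Dkk2 had returned to 8.62, 9.92 and 22.4 CPM and was not called (0.97, edgeR adjusted p = 0.535).

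Dkk3 belongs to the Dickkopf family by sequence, although its action on Wnt signalling is less clear than that of Dkk2. It was 523, 337, 295 and 416 CPM on day 0 and 160.3, 113, 39.9 and 302 CPM on day 7, where only replicate 4 reached the day 0 range. Dkk3 fell by 1.34 on the log2 scale on day 7 (SE 0.37, edgeR adjusted p = 0.0102). Its later levels were 553, 221 and 428 CPM for day 14, 249.6, 236, 301 and 268 CPM for day 21, and 429, 382 and 415 CPM for day 28. All 3 of these days overlapped day 0 and none was called (edgeR adjusted p = 0.987, 0.381 and 0.970). Per 1000 contractile marker counts Dkk3 stood at 10.4 ± 2.29 on day 0 (SD, n = 4) and 42.8 ± 19.2 on day 7 (n = 4). The marker sum itself was at 9.83% of day 0 on day 7, and Dkk3 at 39.2%. A gene that falls by less than the markers rises on this scale, so the ratio adds nothing on Dkk3 itself.

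Wif1, Wnt inhibitory factor, binds Wnt ligands through a domain of its own kind and was the antagonist that was lowest on day 21. Its levels were 118, 167, 219 and 302 CPM on day 0 and 62.3, 7.19, 0 and 150.1 CPM on day 7, where replicate 4 was within the day 0 range and replicate 3 had no count. The day 7 value of -1.85 was not called (SE 0.76, edgeR adjusted p = 0.0909), and it was called in 4 alternatives, with -3.09 and an edgeR adjusted p of 0.00891 without replicate 4 and -2.41 and 0.0267 with the replicate block. On day 14 Wif1 stood at 150.4, 14.1 and 41.8 CPM and was not called (-1.55, edgeR adjusted p = 0.359), although it was without the filter on low counts (edgeR adjusted p = 0.00304). The day 21 libraries held 11.8, 0, 47.7 and 18.6 CPM, all below day 0, and Wif1 fell by 3.34 on the log2 scale (SE 0.84, edgeR adjusted p = 0.0123). Without day 21 replicate 1 the adjusted p was 0.0509. Day 28, at 53.1, 49.6 and 65.5 CPM, also lay wholly below day 0, but was not called (-1.84, edgeR adjusted p = 0.296). It was called without the filter (edgeR adjusted p = 0.000566) and when only these days were fitted (edgeR adjusted p = 0.0403).

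**Figure D3:**
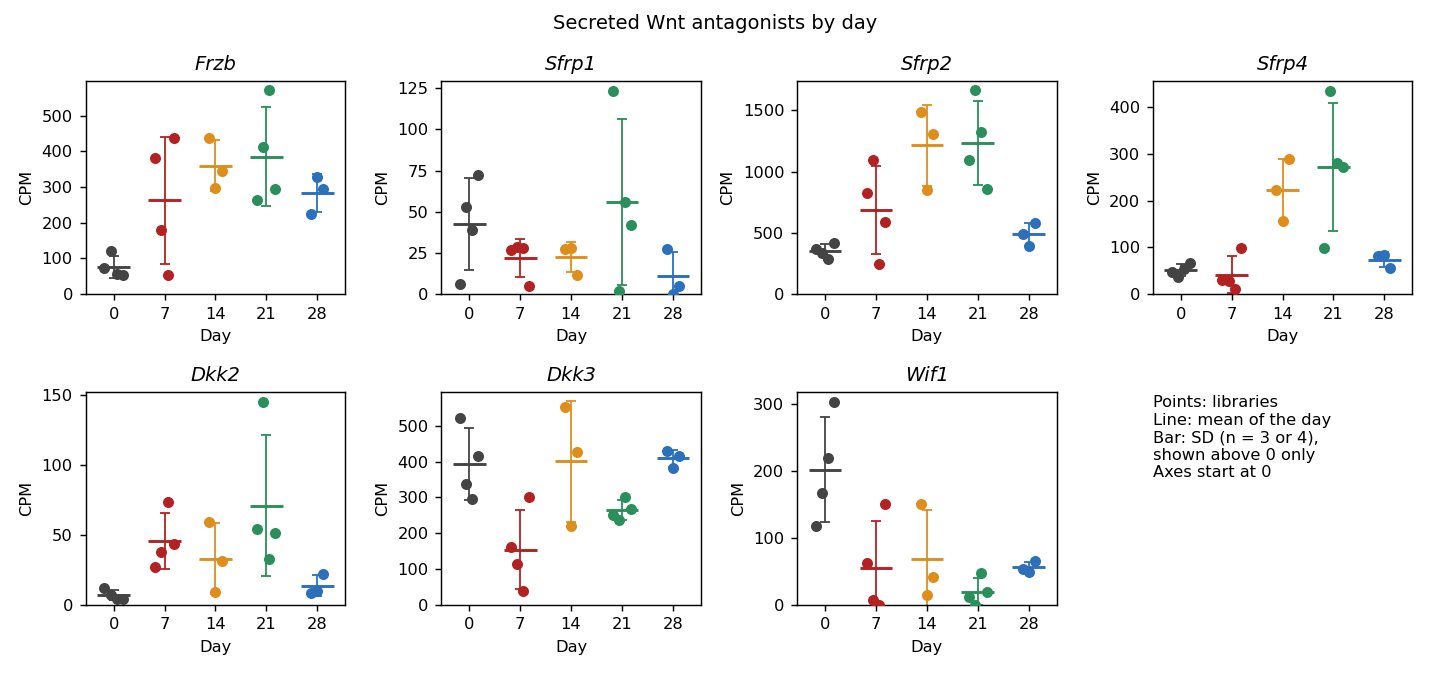
CPM of the 7 other antagonists by day, with 1 point per library, a line at the mean and bars of 1 SD (n = 3 or 4) on axes that start at 0. Sfrp2 and Sfrp4 are highest on days 14 and 21 and come down by day 28, while Wif1 lies below its day 0 libraries on days 21 and 28.

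**Figure D4:**
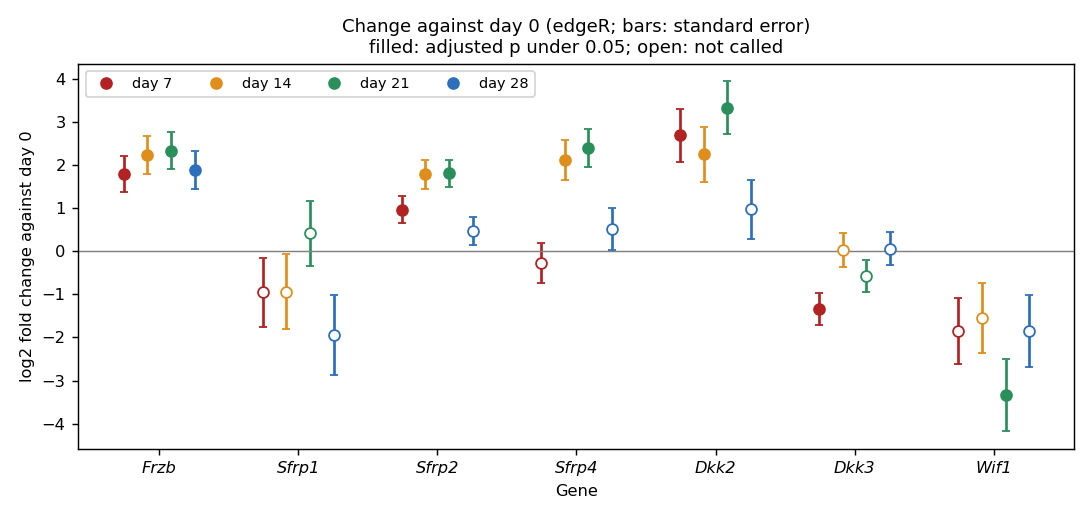
Log2 fold changes against day 0 of the 7 antagonists with their standard errors from edgeR, coloured by day, filled where the adjusted p was under 0.05 and open otherwise. Frzb is filled on all 4 days, Sfrp1 on none, and the largest called rise is that of Dkk2 on day 21, 3.33.

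Comparison with day 7 shows which antagonists moved between the early and the later stages. From day 7 to day 14 only Sfrp4 was called, 2.38 on the log2 scale (SE 0.48, edgeR adjusted p = 0.00983), where 1.33% of all genes were called higher and 0.33% lower. This call was lost when only these days were fitted, with an adjusted p of 0.0602, and without day 14 replicate 3. From day 7 to day 21 Sfrp4 was again the only call, 2.66 (SE 0.46, edgeR adjusted p = 0.000778), beside 4.03% of all genes higher and 3.23% lower. From day 7 to day 28 Dkk3 was the only call, 1.40 (SE 0.39, edgeR adjusted p = 0.0167), beside 6.4% higher and 8.05% lower. It was lost when only these days were fitted, with an adjusted p of 0.0689, and without day 7 replicate 2. Sost is not part of these counts. Its means on days 14, 21 and 28 were 13.2-fold, 38.0-fold and 52.9-fold that of day 7, and 40.3-fold, 116-fold and 161-fold without day 7 replicate 4, which held most of the day 7 counts.

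For the 3 mice whose number stands on a library of both day 0 and day 21, levels could also be set side by side within a mouse. Sost on day 21 was 57.7%, 61.0% and 67.0% of day 0, a narrow range, and the day 21 library with the lowest Sost came from a mouse with no day 0 library. Dkk2 was 7.59-fold, 7.36-fold and 13.0-fold higher in these mice, but its day 0 levels rest on only 6, 3 and 3 counts, so the size of these ratios is uncertain. Frzb was 2.16-fold, 10.3-fold and 5.49-fold higher, Sfrp2 3.23-fold, 4.59-fold and 2.08-fold, and Sfrp4 2.68-fold, 5.21-fold and 4.07-fold, so these 4 genes were higher on day 21 in all 3 mice. Wif1 stood at 7.07%, 21.8% and 6.17% of day 0 and was lower in all 3. Dkk3 and Sfrp1 differed in direction between the mice.

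Markers of other cells also changed over the days. The summed level of 10 fibroblast markers was 1870 ± 569, 1313 ± 478, 3270 ± 925, 3194 ± 699 and 1771 ± 200.0 CPM over days 0, 7, 14, 21 and 28 (SD, n = 4, 4, 3, 4 and 3). The single markers did not all follow this sum. On day 14 Lum and Cd248 were higher than on day 0 and Clec3b was lower, and on day 21 Lum and Cd248 were higher while Clec3b, Dpep1 and Scara5 were lower, with median log2 fold changes of -0.04 and -0.63 over the 10. The 10 macrophage markers summed to 256 ± 184, 5477 ± 931, 2190 ± 848, 2572 ± 653 and 876 ± 182 CPM over the same days. All 10 were called higher on day 7 than on day 0, beside 11.3% of all genes tested. The summed levels of 8 cartilage markers were 60.7 ± 49.7, 209 ± 75.2, 535 ± 424, 798 ± 483 and 391 ± 127 CPM. The 8 endothelial markers had summed means of 949 to 1451 CPM over the days. Single ones departed from this sum on day 7, when 4 (Kdr, Cldn5, Cdh5 and Egfl7) were higher than on day 0 and 1 (Vwf) was lower, beside 11.3% and 8.53% of all genes. Skeletal muscle markers had means of 4.62 to 140.0 CPM, and the highest libraries of days 7, 14 and 21 held 104, 413 and 339 CPM. Nerve markers had means of 22.4 to 102 CPM. The part of these cells in the levels of the antagonists was not tested.

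The rest of the Wnt pathway was described through 100 further genes, of which 58 were tested. On day 7, 4 were higher and 9 lower than on day 0. Of the same genes, 3 were higher and 1 lower on day 14, 7 higher and 1 lower on day 21, and 1 higher on day 28. These compare with the shares of all genes given above. Against day 7, 0 were called on day 14 by edgeR (8 higher and 2 lower at an unadjusted p under 0.05, and 0 by DESeq2), 1 was higher on day 21, and 5 were higher and 3 lower on day 28.

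Among other inhibitors, 3 of 12 could be tested. Apcdd1, a membrane inhibitor of Wnt signalling, was lower on day 7 (edgeR adjusted p = 0.0346), at least 2.76-fold when its day 7 libraries, which held at most 2 counts, are set to 3 counts each. This call was lost in 9 of 23 alternatives. Sostdc1, the closest relative of Sost, had 1 count in all libraries together, Dkk1 had 4 and Notum had 2. Of 19 Wnt ligands, 3 were tested and Wnt4 was higher on day 21, at 85.5 ± 23.0 CPM against 28.4 ± 8.41 on day 0 (both SD, n = 4), a log2 fold change of 1.59 (SE 0.40, edgeR adjusted p = 0.0123) that was lost without day 21 replicate 1. The R-spondin gene Rspo3, whose product enhances Wnt signals at the receptor, was higher on day 28 than on day 7 (2.78, SE 0.71, edgeR adjusted p = 0.0101), a call lost without day 28 replicate 2.

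Of 22 receptors, 16 were tested, and on day 7 edgeR called 5 lower, 0 higher (1 higher at an unadjusted p under 0.05 and 1 by DESeq2) and 11 not at all, beside 8.53% of all genes lower and 11.3% higher. Their median log2 fold change was -1.22. The R-spondin receptors Lgr6 and Lgr4 changed by -2.73 (SE 0.56, edgeR adjusted p = 0.000948) and -2.32 (SE 0.64, edgeR adjusted p = 0.0108) on the log2 scale, and the Frizzled genes Fzd2 and Fzd7 by -1.38 and -1.64 (edgeR adjusted p = 0.0172 and 0.0191). The calls of Fzd2 and Fzd7 were lost in 2 and 3 of 24 alternatives, each of which left out a library of day 0 or day 7, and that of Lgr4 in 1 of 23, the fit with the mouse block. The fifth receptor called, Fzd1, lies outside the rule for named genes and was added after its values were seen. Its change of -1.12 (edgeR adjusted p = 0.0489) was lost in 15 of 24 alternatives, among them other size factors and the fit of only these days. Against day 0, edgeR called no receptor on the later days, while 3, 4 and 1 had an unadjusted p under 0.05 and DESeq2 called 0, 1 and 0. Lgr4, Lrp5 and Lgr6 were higher on day 28 than on day 7, though the call of Lgr6 was lost in 14 of 24 alternatives and that of Lrp5 without day 28 replicate 2. Of 22 intracellular transducers tested, Tcf7l1, a transcription factor of the pathway, was lower on day 7 (-2.04, edgeR adjusted p = 0.0200, lost without day 0 replicate 4 or day 7 replicate 2) and Tle5, from the family of Groucho co-repressors, was lower on day 21 (-0.98, edgeR adjusted p = 0.0116).

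Genes listed as Wnt targets did not move one way on days 7 and 14. Ccn4 was at 1.94 ± 3.13 CPM on day 0 and 64.9 ± 29.5 CPM on day 7 (both SD, n = 4, log2 fold change 4.87, SE 0.63, edgeR adjusted p = 4.6e-06) and was 76.9 ± 32.2 and 84.8 ± 10.8 CPM on days 14 and 21. Its day 0 mean was below the 4.12 CPM to which 3 counts correspond on average on that day, so the size of its rise is uncertain. Ccnd1, cyclin D1, rose by 3.32 (SE 0.44, edgeR adjusted p = 5.59e-06) and Cd44, a hyaluronan receptor, by 2.75 (SE 0.41, edgeR adjusted p = 2.5e-05) on day 7, and both were also higher on days 14 and 21, apart from Cd44 on day 14 when its replicate 2 was left out. Nkd1, an inhibitor that the pathway itself induces, fell by 3.11 on day 7 (SE 0.57, edgeR adjusted p = 0.000320) and by 1.98 for day 14, a call that was lost in 7 of 24 alternatives. In all, 4 of the 11 targets tested were higher and 2 lower on day 7, beside 11.3% of all genes higher and 8.53% lower. On day 14, 3 were higher and 1 lower, beside 4.8% and 1.42%. For day 21 the counts were 6 higher and 0 lower, beside 5.92% and 2.93%. Nkd1 was not called there (-1.51, edgeR adjusted p = 0.0659). The day 21 calls of Ccn5, Vegfa and Tcf4 were lost in 3, 6 and 6 of 24 alternatives. Day 28 had 1 higher and 0 lower, beside 0.97% and 0.369%. Axin2 and Lef1, often used to read the canonical pathway, had 53 and 9 counts in all libraries together and could not be tested.

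Sost is related in sequence to the DAN group of BMP antagonists, and 7 of 12 secreted BMP antagonists were tested beside it. Fstl3, a follistatin-like antagonist of activins, was lower on all 4 days, with log2 fold changes of -2.29 (SE 0.33, edgeR adjusted p = 1.53e-05), -1.49 and -1.15 for days 7, 14 and 21. The call on day 14 was lost without day 14 replicate 2 and that on day 21 without day 21 replicate 1 or 4. The call on day 28 (edgeR adjusted p = 0.0453) was lost in 14 of 24 alternatives. Twsg1 was lower on day 7 (-1.29, SE 0.27, edgeR adjusted p = 0.000919).

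**Figure D5:**
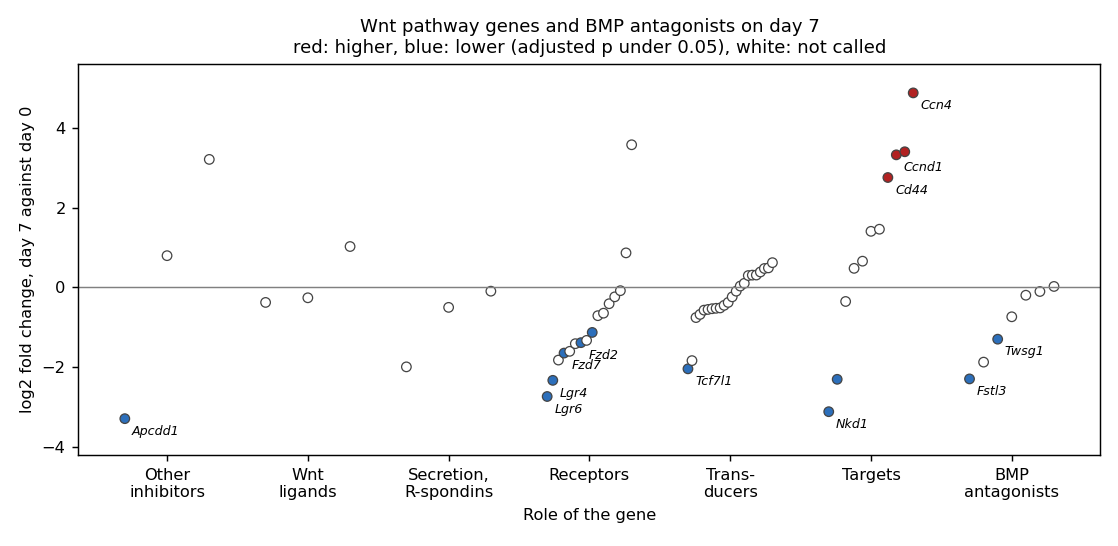
Log2 fold changes of day 7 against day 0 for the tested genes of 7 lists, grouped by role, with red for higher, blue for lower and white for genes that were not called. Up to 4 called genes per list are named, and 5 of the 16 receptors are lower while none is higher.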

How the data were processed

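For each of the 18 MACE libraries the authors collapsed reads by UMI, trimmed them and ran Salmon 1.9.0 on mm39. The authors deposited whole-number estimated counts (expected counts) for each gene, and every value in the text comes from these. Their second table, a signal normalised by the authors with DESeq2 1.36.0, holds a factor per library and a further factor for many genes and was not used for tests, and the authors' own fold changes and p-values were not used. Totals were 440675 to 878310 counts per library, so that 3 counts correspond to 3.55 to 6.98 CPM.

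Counts were fitted in R 4.3.3 with the quasi-likelihood test of edgeR 4.0.16 over all 18 libraries, with day as the group, filterByExpr, TMM and Benjamini-Hochberg adjustment over 10312 genes at 0.05. DESeq2 1.42.0, limma 3.58.1 with voom, other factors, no filter, only the days compared, and each of the 18 libraries left out in turn were alternatives. Replicate numbers did not pair the libraries (median residual correlation -0.01 over 33 pairs of the same number). Not all libraries are separate animals, since 3 mouse numbers stand on both a day 0 and a day 21 library. The edgeR fit has no mouse term, the residual correlation within these 3 pairs was -0.0067 to 0.055, and a voom fit with mouse as a block was an alternative. P-values measure the spread between libraries. The members, the lists and the tests were chosen with earlier results of these data known. Named genes are all members, up to 4 called genes with the smallest p per list and comparison, and the 5 most like Sost. Promoters of Sost and Wif1 were read from GRCm39 with GENCODE, and those of the other genes are not reported here. The edgeR fit was tested on simulated counts.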

Additional observations from a re-analysis of the deposited data

Results flagged for a closer look

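On day 7, the Sost level of replicate 4, 51.7 CPM, stood apart from the other 3 libraries of its day by Dixon's criterion. The same library had the lowest Sfrp1 of day 7, 4.84 CPM, which also stood apart. There were 24 groups of 4 libraries to which this criterion was applied over the 8 genes, and chance alone marks about 1 in 20. Day 7 replicate 4 also had the highest Frzb, Sfrp4, Dkk3 and Wif1 of its day and the highest contractile marker sum, 7381 CPM against a median of 2846.

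The change of Sfrp4 against day 0 differed between days in the direct test, by 2.38 on the log2 scale between days 14 and 7 and by 2.66 between days 21 and 7. That of Dkk3 differed by 1.40 between days 28 and 7.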

How the results depend on the processing

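There were 60 pairs of a gene and a comparison in which it was called, over the antagonists other than Sost, the Wnt pathway lists and the BMP antagonists. Of these, 30 lost the call under at least 1 alternative and 0 changed direction, and 1290 of 1436 single alternatives kept the call. The numbers of called antagonists on days 7, 14 and 21 against day 0 (4, 4 and 5) stayed within 1.5 times their value under the alternatives that changed the tool, factors, filter, block or days fitted, and were 3 to 5, 3 to 4 and 4 to 5 when libraries were left out. The single call on day 28 became 2 without the filter and with only the days compared, and 0 with the replicate block and with the mouse number as a block (0 to 1 with libraries left out). Against day 7, the 1 call on day 14 became 2 with DESeq2, without the filter and with either block, and 0 with only the days compared (0 to 2 with libraries left out). The 1 call on day 21 became 3 without the filter and 2 with the mouse block (1 to 2), and the 1 on day 28 became 2 without the filter and 0 with only the days compared (0 to 2). Pathway calls on day 14 were 7 with DESeq2 and 8 without the filter, against 4, and on day 28 they were 2 and 3, and 0 with the mouse block, against 1. With libraries left out they were 7 to 15, 2 to 7, 5 to 11 and 0 to 1 on days 7, 14, 21 and 28. The lowest values for days 7 and 21 came when day 7 replicate 3 and day 21 replicate 2 were left out. The causes were not tested.

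The difference of Sost from day 0 in the mean of log2 CPM was -6.86, -3.08, -1.76 and -0.80 on days 7, 14, 21 and 28. Per 1000 contractile marker counts, a scale added after seeing the data, the difference in the mean of log2 values was -3.90, -1.45, -0.37 and -0.19. These are means of log2 values, so they differ from the percentages of day 0 above, which are ratios of mean levels. With libraries left out the day 7 difference in mean log2 CPM ran from -7.54 to -6.38 and that of day 21 from -2.16 to -0.88. Among changes that were not called, Dkk3 ran from -0.26 to 0.31 on day 14 and from -0.053 to 0.23 on day 28 with libraries left out, and was -0.017 on day 14 with the mouse block. Sfrp1 on day 21 ran from -0.34 (without day 21 replicate 1) to 0.80, and Sfrp4 on day 7 from -1.14 to 0.010. The replicate block changed no other count of calls by over 1.5 times. Levels of Sfrp1, of Dkk2 and Ccn4 on day 0 and of Sost on day 7 rest on few counts and are limited by depth.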
